A study of Rattus norvegicus with 3 samples.

Results

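Translation factors start, extend and end the reading of mRNA by the ribosome, and aminoacyl-tRNA synthetases supply it with amino acids joined to their tRNAs. In initiation, eIF2 brings the initiator tRNA to the small subunit, the eIF4 factors bring the capped mRNA, and the multi-subunit eIF3 holds the complex together. In elongation, eEF1A delivers charged tRNA, the eEF1B subunits recharge it with GTP, and eEF2 moves the ribosome along. The genes of this machinery were followed in FRSK cells, keratinocytes of a line that was derived from the skin of fetal rats, with 1 whole-transcript array for each of 3 conditions. Members were all genes with a platform symbol of an eukaryotic initiation factor (Eif and a digit), elongation factor (Eef and a digit), release factor (Etf1, Gspt), cytoplasmic poly(A)-binding protein (Pabpc) or synthetase (1 letter and ars, or Eprs), with Eif2ak2 left out. The rule used no measured value. It found 92 of 15037 named genes, namely 37 initiation factors, 7 regulators of initiation, 6 elongation factors, 4 genes associated with elongation, 8 of termination and poly(A) binding, and 30 synthetases.

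One array held RNA of unstimulated cells (control), one of cells given Met-enkephalin (Met-ENK) and one of cells given β-END(1-9), a fragment of β-endorphin that begins with the sequence of Met-ENK. The dose of either peptide was 100 nM and the exposure 24 h, in medium with serum; no source used here says whether control cells received vehicle. Each condition is 1 RNA sample and 1 array, so no difference below has a replicate check, a standard error or a p-value. Differences are therefore given as sizes. A gene was called higher or lower when it passed a filter on signal (mean log2 signal of at least 6.41, the median of the named genes) and differed by at least 1.5-fold, which is 0.58 on the log2 scale.

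The 3 arrays correlated at 0.996 or above over 23188 transcript clusters. Exactly equal signals on a pair of arrays were frequent and appear as differences of 0.00. Of the 92 members, 6 had 1 value on all 3 arrays, and 16 had equal signals with Met-ENK and control, 25 with β-END(1-9) and control and 17 with both peptides. Of the 14 basal keratinocyte markers listed, 7 were measured, with log2 signals from 12.23 to 17.57, all above the array's background probe sets (2.51 to 7.57). Markers of other cell types were mostly within the background range on all 3 arrays, namely 5 of 7 fibroblast, 3 of 4 melanocyte, 4 of 4 endothelial and 4 of 4 immune markers measured. Of 4 muscle markers, 3 were within it, and the fourth, Myl2, had 12.41 in control cells, 13.12 under β-END(1-9) and 13.56 under Met-ENK. Tnnc1, one of the 3, had 5.74, 6.73 and 7.10, so both were called higher with both peptides, and the mean signal of the 4 was 7.36, 7.91 and 8.07. The part of this muscle signal in the results on translation genes was not tested.

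Of the 92 members, 82 passed the signal filter and 71 were above the background range on all 3 arrays. The 10 that did not pass were Eif2s3y, Eif4e3, Eef1a2, Eef2kmt, Gspt2, Pabpc2, Pabpc4l, Pabpc5, Vars2 and Cars2. With Met-ENK against control, 6 of the 82 were called lower (7.32%) and 0 higher. Over all 7519 genes that passed, 6.02% were called lower and 0.692% higher, so the share of members called is close to that of all genes. The 6 were the eIF3 subunit Eif3m, the eEF1B subunits Eef1b2 and Eef1d, the eEF2 kinase Eef2k, the eIF4E-binding protein Eif4ebp1 and the subunit-joining regulator Eif6. With β-END(1-9) against control, 0 of 82 were called in either direction, beside 2.27% lower and 0.559% higher over all genes. Between the peptides, 4 members were lower on the Met-ENK array (Eef2k, Eif3m, Eef1b2 and Eif3f) and 1 was higher (Eif5a2), beside 2.7% lower and 1.89% higher over all genes. Among all genes called with Met-ENK 89.7% were lower, beside 78.8% after quantile normalization and 58.6% (633 lower and 448 higher) without the signal filter. The comparisons with control share 1 control array, and each pair of comparisons shares an array.

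The direction of the small differences depended on the scaling. As deposited, of all 92 members, 28 were higher, 48 lower and 16 equal with Met-ENK relative to control, with a median of -0.038, and 11 were higher, 56 lower and 25 equal with β-END(1-9), with a median of -0.056. Of the members that passed, 54.9% had a lower signal under Met-ENK and 65.9% under β-END(1-9), beside 45.7% and 56.1% of all genes that passed. After quantile normalization the 92 members split into 46 higher and 45 lower in each of these comparisons, with medians of 0.0062 (Met-ENK) and 0.0004 (β-END(1-9)), and the median of all genes that passed moved from -0.03 to 0.04 with β-END(1-9). Between the peptides, 31.7% of the members and 33.0% of all genes were lower on the Met-ENK array as deposited.

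**Figure D1:**
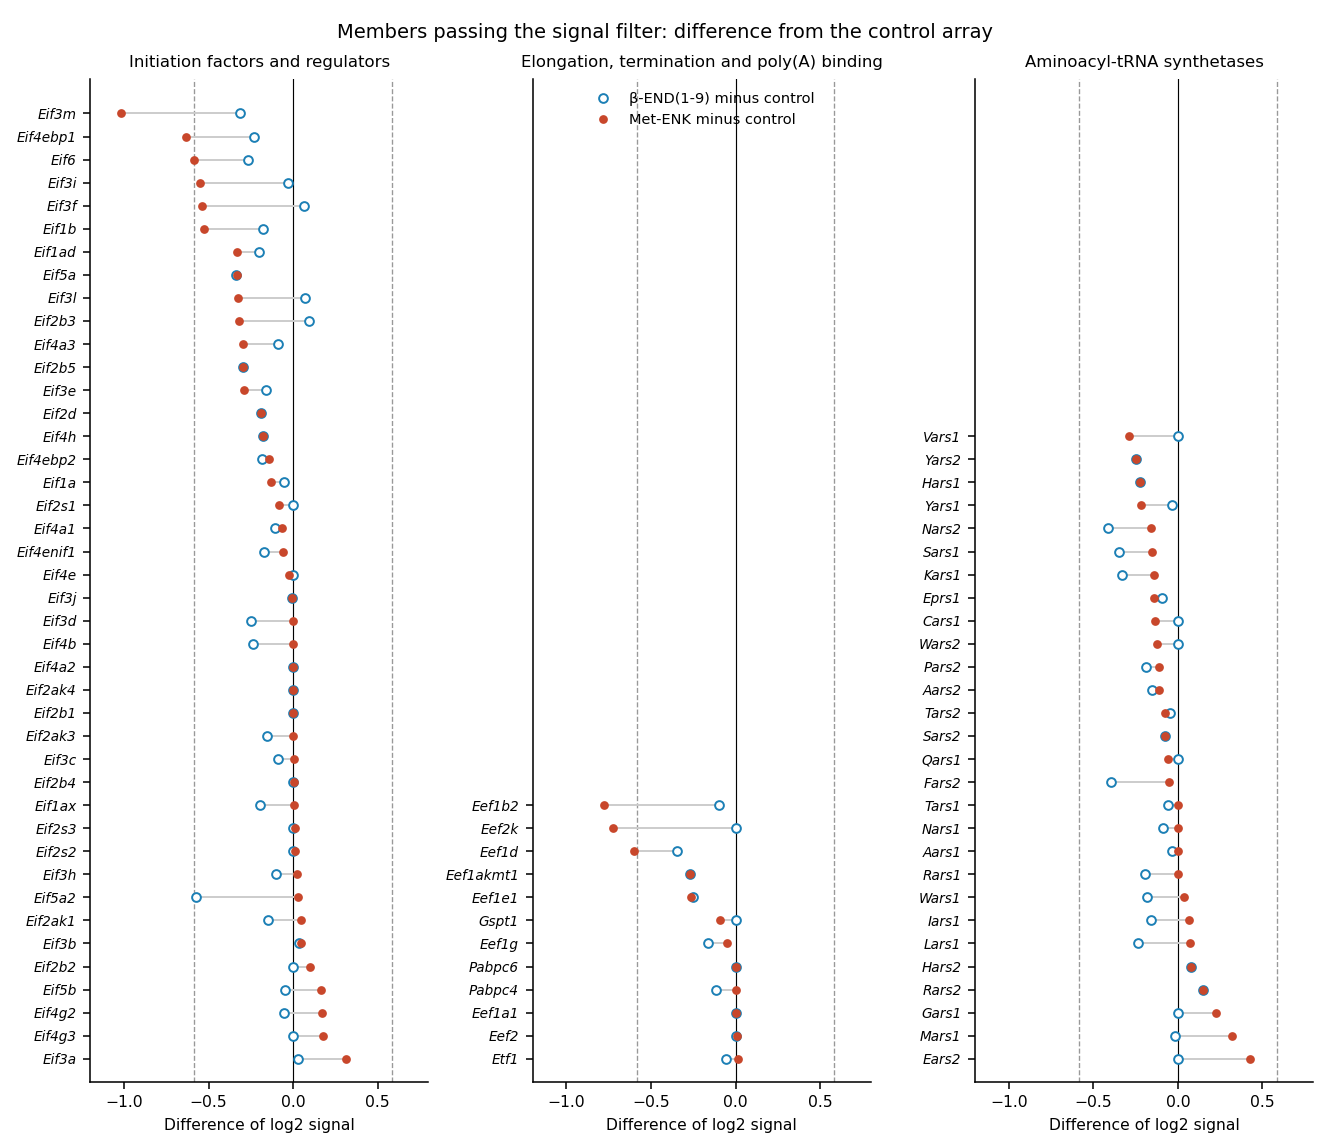
Difference of log2 signal from the control array (x axis) for the 82 members that passed the filter, 1 gene per line and 1 array per condition; filled points are Met-ENK, open points β-END(1-9), dashed lines 1.5-fold. The filled points of Eif3m (-1.02), Eef1b2 (-0.78) and Eef2k (-0.72) lie furthest to the left, and the synthetases all lie between the dashed lines.

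The factors that carry the initiator tRNA were close to equal on the 3 arrays. Eif2s1, the α subunit of eIF2 whose phosphorylation slows initiation, had a log2 signal of 13.39 in control cells, 13.39 under β-END(1-9) and 13.31 under Met-ENK. Eif2s2 (β subunit) had 14.45, 14.45 and 14.46, and Eif2s3 (γ subunit) had 15.47, 15.47 and 15.48 in that order. Their differences ran from -0.081 to 0.011, and the 3 subunits had exactly equal signals with β-END(1-9) and control. The related Eif2s3y, at 4.80, 4.80 and 4.63, lay within the background range, and probes for such similar genes can take up each other's signal.

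The exchange factor eIF2B, which reloads eIF2 with GTP, showed more spread among its subunits. Eif2b5, the catalytic ε subunit, had 11.58 in control cells and 11.29 under either peptide, a difference of -0.30 that is 1 value and not separate measurements, since the peptide arrays had equal signals. Eif2b3 (γ subunit) had 10.05 in control cells, 10.14 under β-END(1-9) and 9.74 under Met-ENK, which is 0.09 above control with one peptide and -0.32 with the other. Eif2b1, Eif2b2 and Eif2b4 differed by 0.00 to 0.10 in all 3 comparisons, though the signals of Eif2b4 lie within the background range on all 3 arrays. None of the 5 subunits was called (0 of 5), beside 6.72% (Met-ENK), 2.83% (β-END(1-9)) and 4.59% (between the peptides) of all genes that passed. A count of 0 over so few genes is a description only.

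The kinases that phosphorylate eIF2 were not called either (0 of 3), beside 6.72% (Met-ENK) and 2.83% (β-END(1-9)) of all genes that passed. Eif2ak3 (PERK, which responds to stress in the endoplasmic reticulum) had 9.93 in control cells, 9.77 under β-END(1-9) and 9.93 under Met-ENK. Eif2ak4 (GCN2, which responds to uncharged tRNA) had 8.18 on all 3 arrays. Eif2ak1 (HRI, known for sensing heme) had 14.31, 14.16 and 14.36. The differences of the 3 kinases ran from -0.16 to 0.05 against control.

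Among the eIF4 factors, which bind the cap and unwind the mRNA, 8 of 9 passed the filter and 0 were called. The cap-binding protein gene Eif4e had 10.88 in control cells, 10.88 under β-END(1-9) and 10.85 under Met-ENK. The helicase gene Eif4a1 had 15.79, 15.68 and 15.72, and Eif4a2 had 13.50 on all 3. The helicase cofactor Eif4b had 12.70, 12.46 and 12.70, so that the β-END(1-9) array stood 0.24 below both others. The scaffold Eif4g3 had 8.33, 8.33 and 8.51, and Eif4g2, a scaffold that lacks the part binding eIF4E, had 15.13, 15.07 and 15.30. Eif4a3, which belongs to the exon junction complex despite its name, had 12.31, 12.22 and 12.02. Differences from control over the 9 genes ran from -0.30 to 0.18 with Met-ENK and from -0.24 to 0.03 with β-END(1-9). Eif4g1 is not analysed here.

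The repressor of eIF4E, Eif4ebp1, differed more than the cap-binding factors themselves. It had 10.06 in control cells, 9.83 under β-END(1-9) and 9.42 under Met-ENK, so that the Met-ENK array was 1.55-fold lower than control (-0.63) and 0.40 (log2) below β-END(1-9). This call was lost after quantile normalization (-0.54) and with the trend along gene size removed (-0.57). Its paralogue Eif4ebp2 had 9.81, 9.62 and 9.66, differences of -0.18 and -0.14 from control. Eif4enif1, which carries eIF4E into the nucleus, differed by -0.17 under β-END(1-9) and by -0.06 under Met-ENK.

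The eIF3 subunits did not share 1 direction on the Met-ENK array, as deposited or under the other scalings. All 11 measured subunits passed the filter, with 4 higher, 6 lower and 1 equal relative to control and a median of -0.0095, beside a median of 0.00 over all genes passing. Eif3m had 15.19 in control cells, 14.87 under β-END(1-9) and 14.17 under Met-ENK. It was 2.02-fold lower with Met-ENK than in control (-1.02) and the member with the largest difference in that comparison. Next came Eif3i (11.91, 11.87 and 11.35) and Eif3f (12.25, 12.32 and 11.71), at -0.55 and -0.54, just short of 1.5-fold, and then Eif3l at -0.33 and Eif3e at -0.29.

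In contrast, Eif3a, the largest subunit and scaffold of the complex, had 15.42, 15.45 and 15.73 and stood 0.31 above control with Met-ENK. Eif3b, the other core scaffold, had 16.35, 16.38 and 16.39. Eif3c, Eif3d, Eif3h and Eif3j lay between -0.0095 and 0.023 from control with Met-ENK. On the β-END(1-9) array the same 11 genes spread less, from -0.31 (Eif3m) to 0.07 (Eif3l), with a median of -0.032. Between the peptides, Eif3m was 1.63-fold (-0.70) and Eif3f 1.52-fold (-0.61) lower with Met-ENK, and Eif3a was 0.29 (log2) higher. The calls of Eif3m in both comparisons and of Eif3f between the peptides held under each of 4 other treatments of the values, which were quantile normalization, median centring, a loess on level and removal of the trend along gene size.

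**Figure D2:**
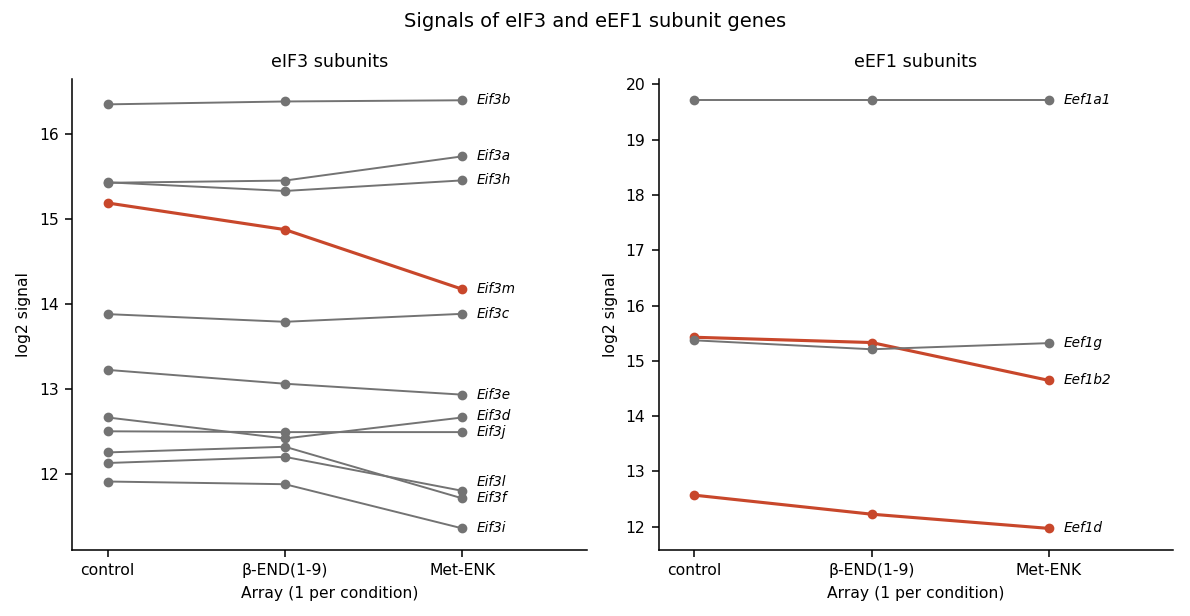
log2 signal (y axis) of the eIF3 subunit genes (left) and eEF1 subunit genes (right) that passed the filter on the control, β-END(1-9) and Met-ENK arrays, 1 array per condition; red lines mark genes called lower with Met-ENK than in control. Eif3m goes from 15.19 to 14.17 and Eef1b2 from 15.43 to 14.65, while Eif3b stays between 16.35 and 16.39; heights of different genes are not comparable amounts.

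The remaining initiation genes act in start codon choice and subunit joining. Eif6, which keeps the large subunit from joining too early, had 13.51 in control cells, 13.25 under β-END(1-9) and 12.93 under Met-ENK, which is 1.5-fold lower than control (-0.59) at the very limit of a call. That call was lost after quantile normalization (-0.56) and with the size trend removed (-0.48). Eif1b, a paralogue of the start codon factor eIF1, had 10.64, 10.46 and 10.11 (-0.53 with Met-ENK). The GTPase gene Eif5b had 12.16, 12.11 and 12.32. Eif1a (12.93, 12.88 and 12.80) and Eif1ax (13.36, 13.16 and 13.37) encode near-identical proteins, so their signals may not be separate.

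The eIF5A genes differed in another way. eIF5A carries the modified residue hypusine and helps the ribosome through difficult peptide bonds. Eif5a had 16.13 in control cells, 15.79 under β-END(1-9) and 15.80 under Met-ENK, as deposited about equally below control with both (-0.34 and -0.33). In that order the differences of Eif5a became -0.24 and -0.19 after quantile normalization, and -0.28 and -0.21 with the size trend removed. Eif5a2, its paralogue, had 9.57, 8.99 and 9.60, so that the β-END(1-9) array alone was low. Its difference from control with β-END(1-9) was -0.58, just short of 1.5-fold, and it was called after median centring (-0.61). The Met-ENK array was 1.52-fold (0.61) above the β-END(1-9) array, a call that was lost with the loess on level (0.58) and with the size trend removed (0.58).

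Of the 35 initiation factors that passed the filter (of 37), 2 were called with Met-ENK, both lower (5.71%, beside 6.02% of all genes). With β-END(1-9) 0 were called, beside 2.27% lower and 0.559% higher over all genes. The medians of these 37 differences were -0.0095 (Met-ENK) and -0.047 (β-END(1-9)), and after quantile normalization 0.04 and 0.03. Over all named genes it was 0.00 in both comparisons, and over those passing the filter 0.00 and -0.03. Between the peptides the median was 0.00, with 2 genes called lower with Met-ENK and 1 called higher. These are 5.71% and 2.86% of the 35, beside 2.7% and 1.89% of all genes.

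Among the elongation factors, 2 of the 3 subunits of the exchange factor were called lower with Met-ENK, beside 6.02% of all genes. Of these 2, Eef1b2 held under every other scaling run and Eef1d did not. Eef1a1, which encodes the eEF1A of most tissues, had 19.71 on all 3 arrays, near the highest value of the table (19.93), where a further difference might not be seen. Eef2 had 18.50 on all 3. Eef1b2, the α subunit of eEF1B, had 15.43 in control cells, 15.33 under β-END(1-9) and 14.65 under Met-ENK. It was 1.72-fold lower with Met-ENK than in control (-0.78) and 1.61-fold lower than with β-END(1-9) (-0.68), calls that held under the 4 other treatments.

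Eef1d, the δ subunit, had 12.57, 12.23 and 11.97. It was 1.52-fold lower with Met-ENK than in control (-0.60), which dropped below 1.5-fold after quantile normalization and with the size trend removed (-0.55 in each). Eef1g, the γ subunit that anchors the complex, had 15.37, 15.21 and 15.32, a difference of -0.05 with Met-ENK that became 0.11 after quantile normalization. Of the eEF1 subunits, 2 of the 4 that passed the filter were thus called lower with Met-ENK, beside 6.02% of all genes. A share over so few genes is a description only. Eef1a2, the eEF1A of muscle and neurons, had 4.81, 4.86 and 4.90, all within the background range.

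mRNAs of elongation factors are known for a pyrimidine run right at the 5′ end, the TOP motif, through which mTORC1 controls their translation. The bases around the annotated start are shown for Eef1a1 and Eef1b2, the 2 elongation factors with such a run within 10 bases of that start. Eef2, which has none that near, is shown beside them. Eif3m and Eef2k are shown because, with Eef1b2, they were the lowest members with Met-ENK. The stretches run from 40 bases before to 20 bases after the start of the RefSeq promoter window (GRCr8). Capitals mark a run of at least 5 pyrimidines that begins with C within 10 bases of that start, where there is one.
Eef1a1, chr8:88225050-88225109, minus strand: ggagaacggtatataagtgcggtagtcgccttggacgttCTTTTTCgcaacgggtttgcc
Eef1b2, chr9:72074051-72074110, plus strand: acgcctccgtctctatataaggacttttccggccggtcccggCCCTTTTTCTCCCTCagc
Eef2, chr7:9189219-9189278, minus strand: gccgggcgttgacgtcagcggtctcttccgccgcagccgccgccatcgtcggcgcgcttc
Eef2k, chr1:184824380-184824439, plus strand: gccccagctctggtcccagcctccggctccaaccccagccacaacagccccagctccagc
Eif3m, chr3:111897174-111897233, minus strand: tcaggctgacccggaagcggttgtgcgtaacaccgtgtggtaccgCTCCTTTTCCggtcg
A run of this kind stood in the windows of 24 of the 83 members with an entry (28.9%) and of 28.8% of 27457 genes with a window. Of the elongation factors with a window, 2 of 5 held one (40%). Eef2 and Eef1g hold pyrimidine runs further before the start, which the limit of 10 bases leaves out. Among the 3 lowest members with Met-ENK, Eef1b2 and Eif3m hold a run within that limit and Eef2k does not. A match in these letters is a description only. For 46 of the 83 members, Eef1a1 and Eef2 among them, the window starts inside the annotated span of the gene. The start used thus need not be the one in use in these cells.

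Genes that modify the elongation factors were measured beside them. Eef2k, the kinase that slows elongation by phosphorylating eEF2, had 7.64 in control cells, 7.64 under β-END(1-9) and 6.92 under Met-ENK, which is 1.65-fold lower (-0.72). Its control and β-END(1-9) signals are equal, so the difference from each is 1 value. The Met-ENK signal lies within the background range, so this difference is between a signal near background and one inside it. The call held under the 4 other treatments. Eef1akmt1, a methyltransferase of eEF1A, had 7.26 in control cells and 6.99 under either peptide, all within the background range. Eef1e1, a scaffold protein of the multi-synthetase complex, had 12.11, 11.86 and 11.84, and Eef2kmt, a methyltransferase of eEF2, was below the filter.

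The release factors were level. Etf1 (eRF1), which reads stop codons, had 14.19 in control cells, 14.13 under β-END(1-9) and 14.21 under Met-ENK, and its GTPase partner Gspt1 (eRF3) had 15.91 with Met-ENK, -0.089 from a control signal that β-END(1-9) equalled. Gspt2 lay within the background range (4.98, 4.98 and 5.04). Pabpc4, a poly(A)-binding protein, had 13.62, 13.51 and 13.62. The other 4 Pabpc members measured lay inside the range of background each time, and Pabpc1 is not analysed here. Of these 8 genes, 4 passed the filter and 0 were called in any comparison. The shares called over all genes that passed were 6.72% (Met-ENK), 2.83% (β-END(1-9)) and 4.59% (between the peptides).

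The 30 synthetase genes held 0 calls in the 3 comparisons, with 28 passing the filter. Over all genes that passed, the shares called were 6.72% (Met-ENK), 2.83% (β-END(1-9)) and 4.59% (between the peptides). Beside such low shares, 0 of 28 is a description only. The 17 cytosolic ones were all above the background range. With Met-ENK against control, 5 of them were higher, 8 lower and 4 equal, with a median of 0.00. With β-END(1-9), 0 were higher, 13 lower and 4 equal, with a median of -0.088. Over all genes passing the filter, 56.1% were lower with β-END(1-9), beside 76.5% (13 of 17) of these. The differences were small, from -0.35 to 0.00, and their direction depended on the scaling: after quantile normalization 10 were higher and 7 lower, with a median of 0.015. Between the peptides, 11 of the 17 were higher on the Met-ENK array and 5 lower, with a median of 0.088.

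Single cytosolic synthetases show how narrow the spread was. Mars1 (methionyl-tRNA synthetase) had 12.14 in control cells, 12.13 under β-END(1-9) and 12.46 under Met-ENK, and its difference of 0.32 was the highest of the 17 with Met-ENK. Vars1 (valyl) had 11.60, 11.60 and 11.31, and its -0.29 was the lowest. Gars1 (glycyl, which also serves the mitochondria) had 13.84, 13.84 and 14.06. With β-END(1-9) the lowest were Sars1 (seryl; 13.88, 13.53 and 13.73) and Kars1 (lysyl; 13.57, 13.24 and 13.42), at -0.35 and -0.33. Wars1 (tryptophanyl, known as interferon-inducible) had 14.27, 14.08 and 14.31, Eprs1 (glutamyl-prolyl) 13.50, 13.40 and 13.36, and Aars1 (alanyl) 14.04, 14.01 and 14.04. Yars1 (tyrosyl) had 11.23, 11.20 and 11.01.

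The 13 mitochondrial synthetases, encoded by separate nuclear genes, had signals nearer to background, with 5 above its range on all arrays and 11 passing the filter. With Met-ENK 3 were higher and 10 lower than control, with a median of -0.11, and with β-END(1-9) 3 were higher, 7 lower and 3 equal, with a median of -0.049 (0.0065 with the size trend removed). Among those passing, Ears2 (glutamyl) was highest with Met-ENK at 6.68 in control cells, 6.68 under β-END(1-9) and 7.11 under Met-ENK (0.43), all within the background range. Yars2 had 8.63 in control cells and 8.38 under either peptide (-0.25). With β-END(1-9), Nars2 (asparaginyl; 7.83, 7.42 and 7.68) and Fars2 (phenylalanyl; 9.57, 9.17 and 9.51) were lowest, at -0.41 and -0.40. The β-END(1-9) signal of Nars2 lies within the background range. Hars2 and Rars2 were 0.08 and 0.15 higher with either peptide, again with equal signals on the peptide arrays. The signals of Hars2 and Rars2 lie within the background range on all 3 arrays. Vars2, at 4.85, 5.22 and 4.41, had the largest difference between the peptides (-0.81) but lies below the filter and within background.

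**Figure D3:**
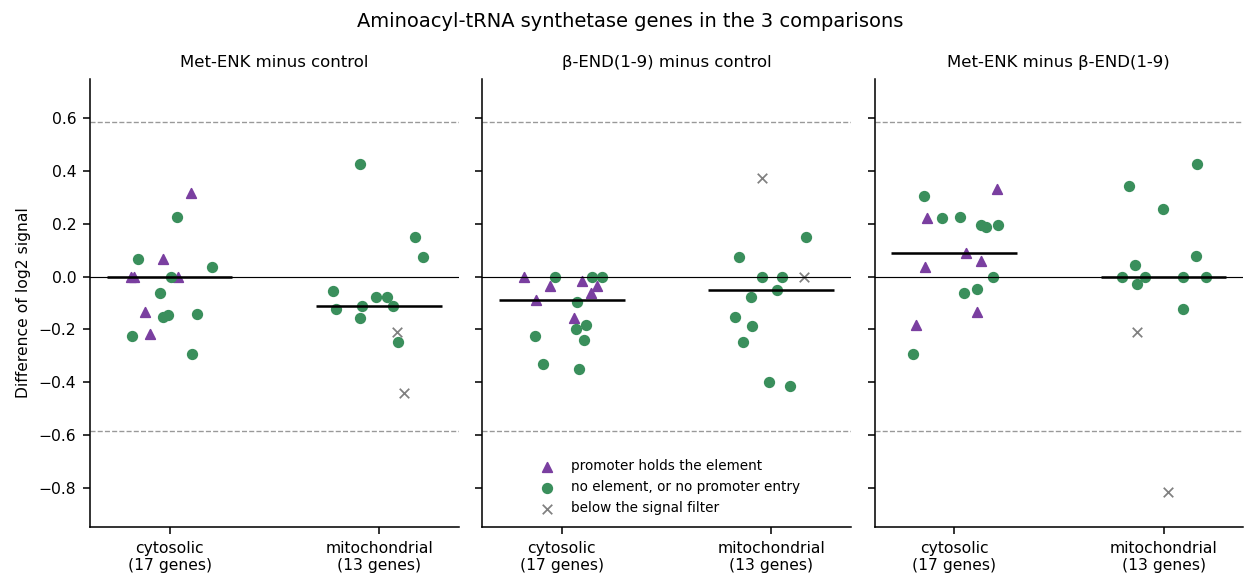
Difference of log2 signal (y axis) of the 17 cytosolic and 13 mitochondrial synthetase genes in the 3 comparisons, 1 array per condition; horizontal bars are medians, dashed lines 1.5-fold, triangles mark genes whose promoter window holds TGATGNAA, and crosses mark genes below the signal filter. The cytosolic medians are 0.00, -0.088 and 0.088, and the point past 1.5-fold is Vars2, which is below the filter.

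Genes of cytosolic synthetases are known targets of ATF4, the transcription factor made when eIF2 is phosphorylated, which binds a composite C/EBP-ATF element. The core of that element, TGATGNAA, was searched on both strands of the RefSeq promoter windows, from 250 bases before to 50 after the start. It stood in 7 of 15 cytosolic synthetase windows (46.7%), in 0 of 13 mitochondrial ones and in 1 of 33 initiation factor windows (Eif2s2). Over all genes with a window the share was 3.82%, and over named genes passing the filter 2.07%. The stretches are shown because they let the cytosolic synthetases be read as 2 sets, with and without the element in the window searched. They are from GRCr8, 5′ to 3′ on the strand of the gene, and capitals mark the element, which reads TTGCATCA or TTTCATCA where it lies on the other strand.
Aars1, chr19:55908350-55908397, plus strand: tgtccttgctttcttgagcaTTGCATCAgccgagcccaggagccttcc
Aars1, chr19:55908480-55908509, plus strand: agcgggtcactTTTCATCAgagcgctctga
Cars1, chr1:208225334-208225363, minus strand: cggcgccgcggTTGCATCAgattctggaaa
Iars1, chr17:15193653-15193696, minus strand: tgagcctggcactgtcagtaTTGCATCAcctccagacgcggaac
Mars1, chr7:65023754-65023790, minus strand: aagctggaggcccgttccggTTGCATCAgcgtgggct
Nars1, chr18:60275783-60275816, minus strand: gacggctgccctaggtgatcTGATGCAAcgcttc
Tars1, chr2:62114803-62114849, minus strand: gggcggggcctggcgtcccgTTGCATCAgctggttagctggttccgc
Yars1, chr5:146820190-146820212, plus strand: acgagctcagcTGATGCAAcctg
The element begins 112 bases before the start in Aars1, 24 in Iars1, 17 in Mars1, 14 in Nars1 and 27 in Tars1. In Cars1 and Yars1, and in the second copy of Aars1, it lies after the start.

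On these arrays the 7 genes with the element differed from control by a median of 0.00 under Met-ENK (from -0.22 for Yars1 to 0.32 for Mars1) and of -0.035 under β-END(1-9). With β-END(1-9) these 7 ran from -0.16 to 0.00. The 8 cytosolic synthetases whose window lacks it had medians of -0.14 (from -0.29 to 0.068) and -0.20 (from -0.35 to 0.00). The ranges of the sets thus overlapped. Between the peptides the medians were 0.0608 with the element and 0.0935 without it. These medians are of the deposited values. Neither set held a call, beside 6.72% (Met-ENK) and 2.83% (β-END(1-9)) of all genes that passed the filter. Binding of a factor was not measured, and Gars1 and Rars1 had no window. The window starts inside the annotated gene for Aars1, Cars1, Iars1 and Mars1, which hold the element. It also does so for Eprs1, Kars1, Lars1, Sars1 and Vars1, which lack it. Lacking the element thus holds for the windows searched only. The E-box CACGTG, which Myc and related factors bind, stood in the windows of 16 of 83 members (19.3%), beside 10.2% of named genes passing the filter and 6.65% of all genes with a window. Its copies were in 8 initiation factor windows, 5 synthetase windows and 3 others. Both motifs were searched on both strands, and neither contains the other.

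Other genes of the same pathways were counted from fixed lists. Among 26 measured genes of the integrated stress response and its ATF4 targets, 23 passed the filter and 0 were called in any comparison. The shares called over all genes were 6.72% (Met-ENK), 2.83% (β-END(1-9)) and 4.59% (between the peptides), so 0 of 23 is a description only. Medians of the 26 relative to control were -0.053 (Met-ENK) and -0.051 (β-END(1-9)), beside 0.00 over all named genes in both. Of 24 measured genes of the mTORC1 pathway, which controls Eif4ebp1 and Eef2k through phosphorylation, 23 passed and 3 were called lower with Met-ENK (beside 6.02% of all genes) and 0 with β-END(1-9) (beside 2.27%). These were Nprl2 (7.03, 6.86 and 6.10), an inhibitor of mTORC1, Tbc1d7 (9.69, 9.69 and 8.99) of the inhibitory TSC complex, and the Rag GTPase Rraga (12.97, 12.62 and 12.38), at -0.93, -0.71 and -0.59. The signals of Nprl2 lie within the background range on all 3 arrays, which limits what its differences can show. Rps6kb1, the S6 kinase that acts below mTORC1, had 13.47, 13.36 and 14.03. Rps6kb1 was called higher between the peptides (0.67), where Nprl2 and Tbc1d7 were called lower.

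Of 24 further measured translation genes outside the rule, 22 passed and 3 were called lower with Met-ENK (13.6%, beside the same 6.02%). These were the ribosome rescue factor Pelo (8.58, 8.36 and 7.69), the diphthamide enzyme Dph5 that modifies eEF2 (8.67, 7.59 and 7.96) and Pdcd4, an inhibitor of eIF4A (11.61 with β-END(1-9) and 11.41 with Met-ENK), at -0.90, -0.72 and -0.59. Dph5 was also called lower with β-END(1-9), at -1.09. Of 12 mitochondrial translation factors 10 passed and 0 were called against control, beside 6.72% (Met-ENK) and 2.83% (β-END(1-9)) of all genes. Tufm, the mitochondrial EF-Tu (9.08, 9.46 and 8.75), was called lower with Met-ENK than with β-END(1-9) (-0.72), beside 2.7% of all genes.

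Differences with Met-ENK went with the size of the gene, here as in all genes. Over the 82 members that passed, the Pearson correlation of the difference with log10 genomic span was 0.30, beside 0.27 over all 7519 genes. With β-END(1-9) it was 0.03 and -0.0006. Genes are not independent replicates, and all points come from the same arrays. Over the 11 eIF3 subunits the Pearson correlation with Met-ENK was 0.49. The rank correlation was 0.70, beside a rank correlation of 0.27 over all genes. Eif3i (7.45 kb) and Eif3f (8.98 kb) stood at the short end, though the lowest value, Eif3m, has 17.6 kb. Eef1b2 spans 2.50 kb and Eif6 6.25 kb, whereas Eef2k spans 63.6 kb and Eef1a1, with a difference of 0.00, 3.85 kb.

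Of the fifth of genes that span least, 13.6% were called lower with Met-ENK, beside 2 of 15 members (Eef1b2 and Eif6), and of the fifth that span most 1.53% and 0 of 8 members. With the trend along span removed, the members called lower were Eif3m, Eef1b2 and Eef2k (3). The 399 positive control probe sets also differed, with medians of -0.23 (Met-ENK) and -0.12 (β-END(1-9)) relative to the control array. The 1153 negative control probe sets had medians of the other sign, 0.086 (Met-ENK) and 0.031 (β-END(1-9)). The part of span, RNA quality or labelling in these differences was not tested.

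**Figure D4:**
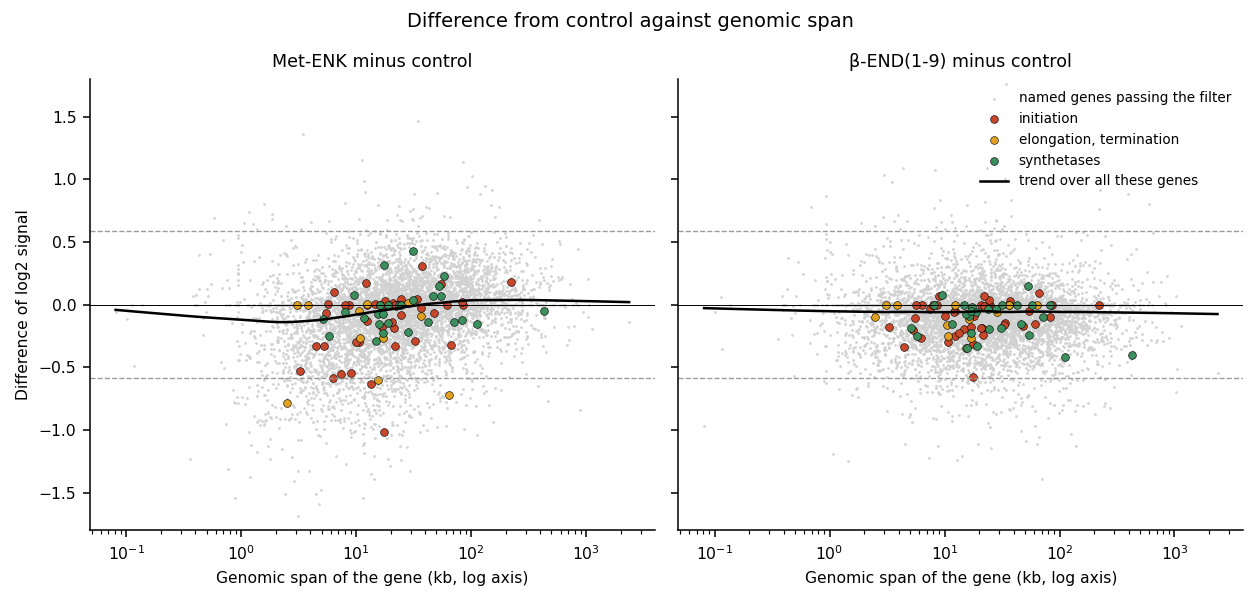
Difference of log2 signal from control (y axis) against the genomic span of the gene in kb (log axis) for Met-ENK (left) and β-END(1-9) (right), 1 array per condition; grey points are the 7519 named genes passing the filter, coloured points the 82 members, the black line the loess trend over the grey points, dashed lines 1.5-fold. The trend dips below 0 at short spans on the left and stays flat on the right, and 13.6% of the fifth of genes that span least were called lower with Met-ENK.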

How the data were processed

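The deposited values are log2 signals, 1 per transcript cluster and array, which the authors made with Affymetrix Expression Console, Transcriptome Analysis Console and RMA, per the submitters' processing notes. No source used here states versions, the annotation release or the genome build. The 1646 control probe sets were left out. The platform annotation names 15037 genes. Of these, 10 have several probe sets, and the one with the highest mean was used. All 92 members have 1 probe set and were found by Entrez identifier in RefSeq (GRCr8), which also gave genomic span and promoter windows. For 83 members there is a window, and for 2 of them 2, of which the first was used.

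Groups came from the sample titles. Differences are between single arrays, with no test. The alternatives were quantile normalization, median centring, loess on level and along log10 span (statsmodels 0.14.6, span 0.3), no filter, a 2-fold limit, averaged probe sets and medians over members that pass. The code that makes the calls was tested on simulated data, which gives the calls no error. Named genes are all called members, the 2 most extreme in each direction, group and comparison, those with the highest and lowest signal of a group, and 25 textbook genes, 22 of them measured; others are named to complete a complex or list and were chosen after their values were seen. Members, lists and limits were chosen with earlier results of these data known.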

Additional observations from a re-analysis of the deposited data

How the results depend on the processing

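Over 12 results (the number of members called and the medians of initiation factors, elongation factors and synthetases in 3 comparisons), 70 alternative values stayed within 0.1 (log2) or, for counts, within 1.5 times, and 5 counts did not. The medians are themselves near 0, and 6 of the 8 that were not 0 changed sign. With Met-ENK, initiation factors went from -0.0095 to 0.04 (quantile) and elongation factors from -0.025 to 0.0062 (quantile) and 0.049 (span). With β-END(1-9), initiation factors went from -0.047 to 0.03 (quantile), 0.022 (loess) and 0.0081 (span), elongation factors from -0.048 to 0.0028 (loess) and 0.01 (span), and synthetases from -0.068 to 0.0078 (quantile). Between the peptides, elongation factors went from 0.0041 to -0.017 (loess). With Met-ENK against control, 6 members were called, 3 after quantile normalization or with the span trend removed (Eif3m, Eef1b2 and Eef2k in both), and 1 (Eif3m) at 2-fold. With β-END(1-9) against control, 0 were called, and 1 (Eif5a2) after median centring. Between the peptides, 5 were called (1 higher), 4 (0 higher) with the span trend removed or a loess on level, and 0 at 2-fold. The share of lower genes among all called with Met-ENK was 89.7%, 78.8% after quantile normalization and 58.6% with no filter. Of the alternative values for differences of named members, 616 stayed within 0.1 and 29 moved by more, and 0 called ones changed sign. The cause of these moves was not tested. No paired analysis was possible because each group has 1 array. Signals within the background range, as for Eef2k with Met-ENK, limit what a difference can show, and 1 array per condition limits all values.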
